A study of Ciona robusta with 15 samples.

Results

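Brachyury (Bra) is the T-box transcription factor that specifies the notochord of the ascidian Ciona, and it is described here at the level of its transcript in whole Ciona robusta embryos. It was taken as the 1 gene model KH.S1404.1 among the 15284 gene models of the deposited tables. The embryos came from fertilised, dechorionated eggs electroporated with plasmids, were grown at 21 °C in artificial seawater, and were pooled as 300 embryos per sample at Hotta stage 19.5. Every group carried at least 1 construct under the Etr1 enhancer, which drives expression in the nervous system. Control embryos received Etr1>H2B-Venus, a nuclear fluorescent reporter. Bra embryos received Etr1>Venus-Bra, a fusion of the fluorescent protein with Bra. The other groups received Etr1>Venus-Bra together with Etr1>Foxa.a-Myc (Bra+Foxa.a), with Etr1>Mnx-HA (Bra+Mnx), or with both (Bra+Foxa.a+Mnx). Each of the 5 groups had 3 libraries, numbered 1 to 3 in the sample titles, and the series asks how Bra acts with its partners in notochord fate.

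In the ascidian embryo Bra is switched on in the notochord precursors and remains a marker of that tissue, where it activates genes of notochord differentiation. The forkhead factor Foxa.a acts upstream of Bra and is also made in notochord, endoderm and ventral nervous system, and Mnx is a homeodomain factor whose gene is also expressed in the vertebrate notochord. An embryo given Etr1>Venus-Bra therefore holds Bra transcripts of at least 2 origins, its own notochord and the plasmid in neural cells, and the gene-level values do not part them. Electroporated plasmids are inherited by a variable share of the cells of an embryo. The amount of each plasmid is not given in the sources used here. In RNA of whole embryos more cells that express a gene and more RNA per cell cannot be told apart.

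Bra transcripts were present in all 15 libraries, with 503 to 1894 reads each out of 17689915 to 26460260 reads per library. The error of counting alone was 2.30% to 4.46% of these read numbers. To set all libraries side by side, the whole read numbers recovered from the deposited values were divided by 1 set of size factors, which gives normalised reads on a scale rebuilt across the tables. On that scale the control libraries had 611.5, 792.6 and 555.6 normalised reads in replicates 1, 2 and 3. Bra libraries had 963.2, 1449 and 797.8. Replicate 2 was the highest library in both groups, and Bra replicate 3 lay only just above control replicate 2. With Foxa.a added the values were 1202, 1332 and 1090.0 normalised reads, and with Mnx added they were 1083, 1279 and 1243. With all 3 factors Bra stood at 1550.0, 1618 and 1454. Every Bra-given library thus lay above every control library, and every Bra+Foxa.a+Mnx library lay above the 12 other libraries, by a margin of 1454 over 1449 at the closest. Of all genes with a mean of at least 1, 0.456% had these 3 libraries above the 12 others.

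**Figure D1:**
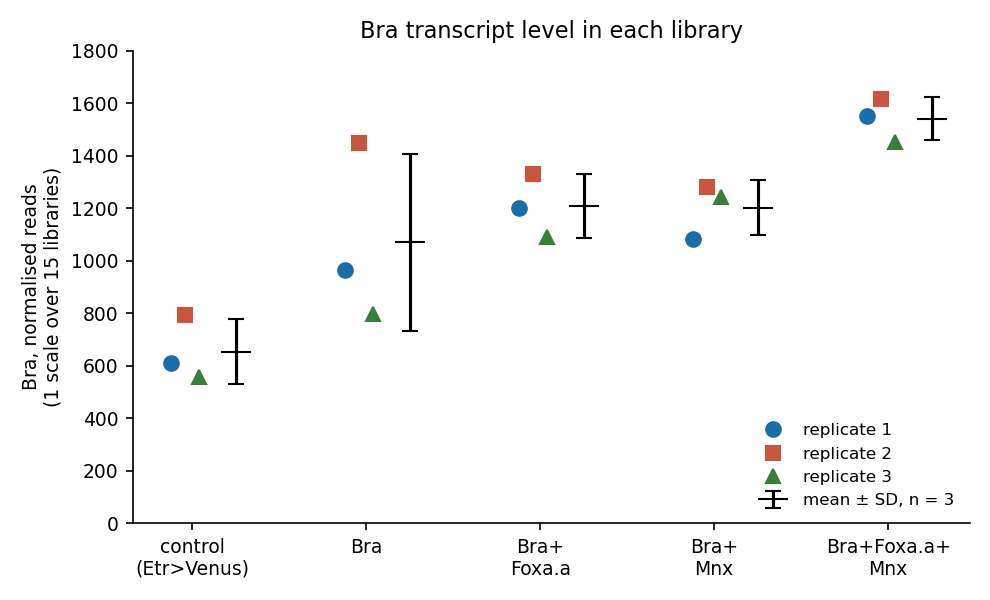
Bra transcript level in each of the 15 libraries, in normalised reads on 1 scale over all libraries (y axis), by group (x axis). Symbols mark the replicate number and the black bars give the mean ± SD (n = 3); controls sit between 555.6 and 792.6, and the 3 libraries given all factors between 1454 and 1618.

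The mean level of Bra was 653.2 ± 123.9 normalised reads in control and 1070.0 ± 338.2 in Bra embryos (SD, n = 3 each). It was 1202 ± 104.4 with Mnx, 1208 ± 121.1 with Foxa.a and 1541 ± 82.6 with both partners (SD, n = 3 each). Scaled to the library totals instead, as CPM (counts scaled to a common total), the 5 means were 30.7 ± 5.52, 48.6 ± 12.7, 57.2 ± 4.29, 57.4 ± 6.18 and 72.3 ± 3.02 in the same order (SD, n = 3 each). The order from lowest to highest mean was therefore control, Bra, Bra+Mnx, Bra+Foxa.a and all 3 factors. Control was the lowest and Bra+Foxa.a+Mnx the highest group within each replicate number. The 3 groups between them changed places: Bra alone was the lowest of the Bra-given groups in numbers 1 and 3. On the rebuilt scale it stood above Bra+Mnx and Bra+Foxa.a in number 2. That place depended on the scaling: as CPM, replicate 2 had 62.5 with Bra alone, 62.6 with Foxa.a added and 61.3 with Mnx added. The size factor of Bra replicate 2 departed from its library total more than that of any other library (-0.12 in log2 units). Taken over all 4 Bra-given groups, the level exceeded control by 0.93 on the log2 scale. In an exact two-sided permutation test that moved the control label within each replicate number, p was 0.008, the smallest that this test can give with 3 numbers and 5 groups.

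The first comparison asks how the level of Bra transcript in embryos given the Bra plasmid alone differed from that in control, whatever the origin of the transcripts. In the deposited table of that comparison Bra embryos had 1039 ± 326.3 normalised reads against 635.2 ± 119.5 in control (SD, n = 3 each). Within each replicate number the Bra library was 1.57, 1.82 and 1.44 times its control. The limma test gave a log2 fold change of 0.68 ± 0.23 (SE; 95% interval 0.16 to 1.20) with a Benjamini-Hochberg adjusted p of 0.408, which did not pass the threshold of 0.05. With the replicate number as a block the log2 fold change was 0.68 ± 0.08 and passed (limma, adjusted p = 2.52e-08). Of all genes tested in that comparison 1.42% were called higher without the block and 7.1% with it, while 0.0703% and 2.4% were called lower. The Bra and control libraries did not overlap, at 777.8 for the lowest Bra library and 769.8 for the highest control, and 6.63% of all genes had all treated libraries above all controls. Leaving out Bra replicate 2 lowered the log2 fold change to 0.44, without the block.

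Without the block Bra passed against control in the 3 groups that were also given a partner factor. A call in these groups and none with Bra alone does not measure a difference between them. In Bra+Foxa.a embryos Bra rose 1.86-fold (log2 fold change 0.90 ± 0.15, 95% interval 0.54 to 1.25, limma adjusted p = 0.0137), where 3.7% of all genes were called higher. The libraries were 1.96, 1.68 and 1.96 times the control of the same number. The call was lost without replicate 3 of the controls (log2 fold change 0.79, limma adjusted p = 0.051) and without replicate 2 of the treated group (0.83, adjusted p = 0.0645). In Bra+Mnx embryos Bra rose 1.85-fold (0.89 ± 0.15, 95% interval 0.53 to 1.24, limma adjusted p = 0.0292), beside 1.47% of all genes called higher, and the same-number ratios were 1.76, 1.61 and 2.23. That call was lost when replicate 1 or 3 of the controls was left out (limma adjusted p = 0.0794 and 0.119), or replicate 2 or 3 of the treated group (adjusted p = 0.128 and 0.115), at log2 fold changes of 0.78 to 0.86. With all 3 factors Bra rose 2.38-fold (1.25 ± 0.14, 95% interval 0.93 to 1.58, limma adjusted p = 0.002), with same-number ratios of 2.53, 2.04 and 2.61, and 2.82% of all genes were called higher. This call held without any 1 of the 6 libraries (highest adjusted p = 0.0123, limma). In all 3 groups every treated library lay above every control, and the same held for 10.4% of all genes with Foxa.a added, 7.53% with Mnx added and 9.32% with both. Bra passed in the blocked fit as well (limma adjusted p = 1.49e-06, 7.82e-04 and 4.97e-06 in the same order). That fit called 12.4%, 6.48% and 7.86% of all genes higher in these groups. Single libraries were left out only in fits without the block, so the lost calls do not take the pairing into account.

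Counted as normalised reads above the control of the same number, the gain in Bra was 339.2, 634.6 and 236.2 in Bra embryos, a mean of 403.3 ± 206.8 (SD, n = 3). With Mnx added it was 460.4, 480.1 and 679.2, and with Foxa.a added 614.0, 564.1 and 558.8. With both added it was 920.7, 813.3 and 884.8, a mean of 872.9 ± 54.7 (SD, n = 3). The mean gain thus exceeded the control level of 642.5 ± 121.4 (SD, n = 3) in that table, and lay below the mean control level in each of the other 3 tables. The 4 comparisons share their control libraries, so the gains are not independent of each other, and each table has its own scale.

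**Figure D2:**
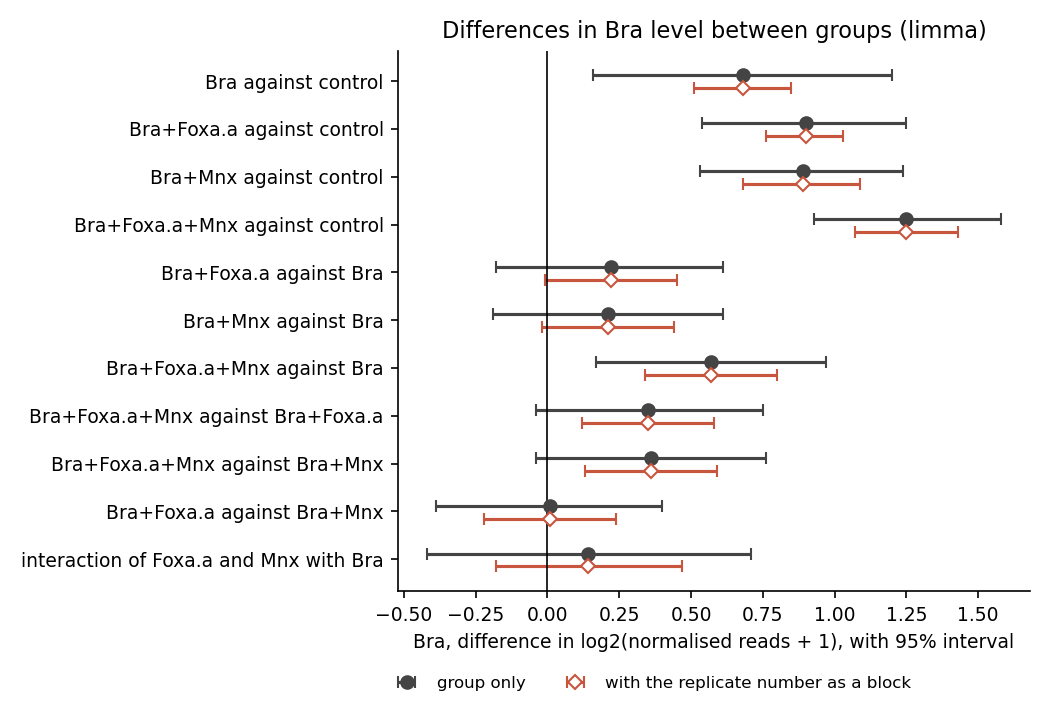
Differences in Bra level for the 10 comparisons between groups and the interaction of the partner factors, in units of log2(normalised reads + 1) (x axis), with 95% intervals from limma. Filled circles are fits with group only and open diamonds fits with the replicate number as a block; all 4 intervals against control lie above 0 in both fits.

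Whether the Bra-given groups differed from each other in Bra level was tested in 1 limma fit of all 15 libraries. Without the replicate block none of the 6 differences passed in limma or edgeR, and 1 of them, that between all 3 factors and Bra alone, had an unadjusted p under 0.05 (limma, 0.00809) and passed with the block. Adding Foxa.a to Bra moved the level by 0.22 ± 0.18 on the log2 scale, with a 95% interval of -0.18 to 0.61, which spans ratios of 0.883 to 1.53 (with the block, -0.01 to 0.45). Adding Mnx to Bra moved it by 0.21 ± 0.18 (95% interval -0.19 to 0.61, and -0.02 to 0.44 with the block). Both differences rested on single libraries of the Bra group: they were 0.46 and 0.45 without Bra replicate 2, and 0.03 and 0.02 without Bra replicate 3. Bra+Foxa.a and Bra+Mnx differed by 0.01 ± 0.18 (95% interval -0.39 to 0.40). Of all genes, 0.295%, 0.0281% and 0.435% passed in these 3 comparisons in either direction, and 4.72%, 1.33% and 4.28% with the block. These intervals do not show that the levels were alike. In numbers 1 and 3 Bra alone was below both groups, and in number 2 it was above both on the rebuilt scale (ratios to Bra alone of 1.25, 0.92 and 1.37 with Foxa.a, and 1.12, 0.883 and 1.56 with Mnx). As CPM it was not above Bra+Foxa.a in number 2.

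The embryos given all 3 factors had more Bra transcript than those given Bra alone in each replicate number, with ratios of 1.61, 1.12 and 1.82. The difference was 0.57 ± 0.18 on the log2 scale (95% interval 0.17 to 0.97, limma adjusted p = 0.289), and passed with the replicate block (limma, adjusted p = 0.00265), where 2.55% of all genes were called higher against 0.386% without it. It passed without the block when Bra replicate 2, the highest library of its group, was left out (0.81, limma adjusted p = 0.043). Against Bra+Foxa.a the difference was 0.35 ± 0.18 (95% interval -0.04 to 0.75, and 0.12 to 0.58 with the block, limma adjusted p = 0.137), with same-number ratios of 1.29, 1.21 and 1.33. Against Bra+Mnx it was 0.36 ± 0.18 (95% interval -0.04 to 0.76, and 0.13 to 0.59 with the block, limma adjusted p = 0.133), with ratios of 1.43, 1.27 and 1.17. In these comparisons 0.231% and 0.126% of all genes passed in either direction, and 2.17% and 1.82% with the block. Bra+Foxa.a+Mnx libraries did not overlap those of any of the other 3 Bra-given groups, and lay above them for 3.83% of all genes against Bra, 2.38% against Bra+Foxa.a and 3.22% against Bra+Mnx. The effect of Mnx on the Bra level in the presence of Foxa.a, less its effect in the absence of Foxa.a, was 0.14 ± 0.26 (95% interval -0.42 to 0.71).

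The rise of Bra lay in the upper tail of the genes tested in the same embryos, but not at its end. In the comparison of Bra with control 6.66% of all genes tested had a larger log2 fold change than Bra itself, which placed it at rank 948 of 14221. The share was 6.53% with Foxa.a added, 5.34% with Mnx added and 3.23% with all 3 factors, where Bra ranked 460 of 14213. In Bra+Mnx embryos 1.52% of genes exceeded the log2 fold change of Mnx, and in Bra+Foxa.a embryos 4.98% exceeded that of Foxa.a. Since each gene starts from the transcripts already in the embryo, these shares describe changes and say nothing of how much RNA each plasmid gave.

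**Figure D3:**
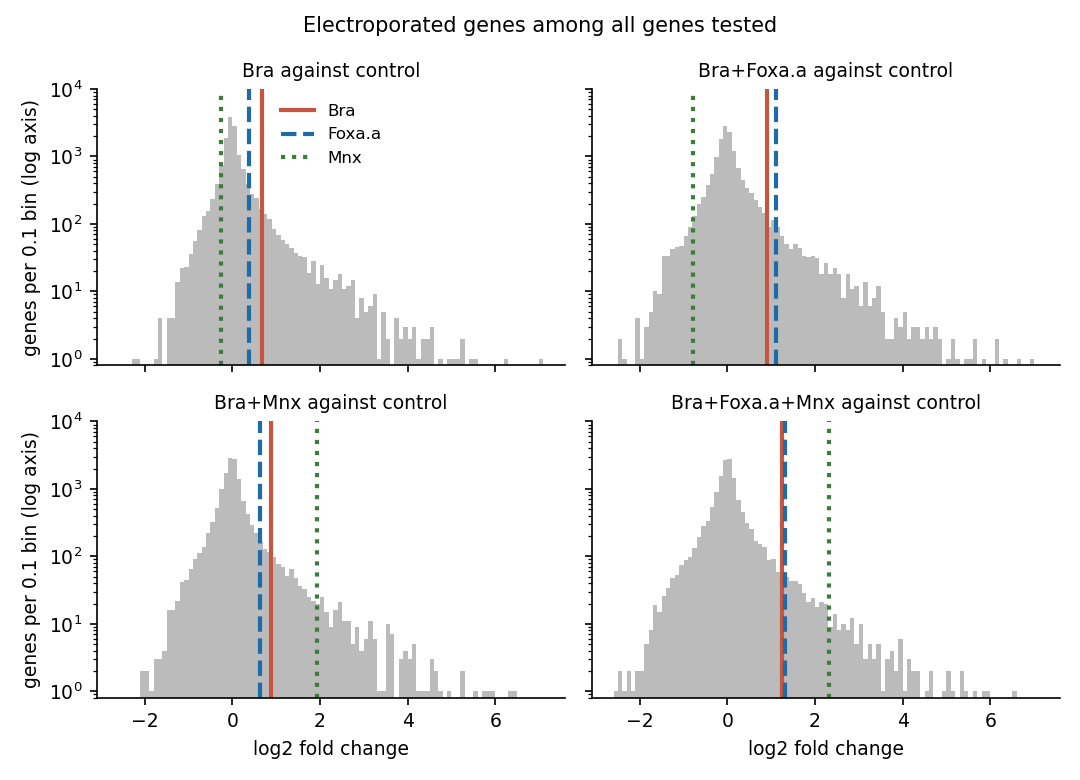
Number of genes per bin of 0.1 log2 units (y axis, log scale) by log2 fold change against control (x axis), 1 panel for each Bra-given group. Vertical lines mark Bra (solid), Foxa.a (dashed) and Mnx (dotted); the Bra line moves from 0.68 in Bra embryos to 1.25 with all 3 factors and in each panel lies inside the upper tail, not at its end.

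The partner genes were read in the same libraries. The identifiers of the genes named here beside Bra were not checked against an annotation. Foxa.a (KH.C11.313) had 5544 ± 281.3 normalised reads in control, 7219 ± 974.4 in Bra and 8562 ± 1216 in Bra+Mnx embryos, none of which had received its plasmid (SD, n = 3 each). It had 12021 ± 400.4 and 13868 ± 939.8 in the groups given Foxa.a without and with Mnx (SD, n = 3 each). Foxa.a also passed against control in Bra+Mnx embryos, at a log2 fold change of 0.62 ± 0.12 (limma adjusted p = 0.0489), where 1.47% of all genes were called higher. In Bra embryos it stood at 0.37 ± 0.13 (limma adjusted p = 0.413, and 6.89e-04 with the block, which called 7.1% of all genes higher). Mnx (KH.L128.12) had 483.4 ± 78.9 normalised reads in control, 405.5 ± 41.1 with Bra alone and 281.7 ± 59.7 with Foxa.a added, against 1957 ± 860.0 and 2418 ± 330.2 in the groups given Mnx (SD, n = 3 each). Bra thus had its highest mean in the group in which the means of both partner genes were also highest. In Bra+Foxa.a embryos Mnx was 0.543, 0.734 and 0.49 times the control of the same number. All its libraries there lay below the controls, as for 8.19% of all genes. Mnx was called lower in that group only with the block (limma), which called 12% of all genes lower. With Bra alone its ratios were 0.883, 0.955 and 0.708, and it was called in neither fit. Adding Mnx to Bra+Foxa.a embryos changed Foxa.a by 0.20 ± 0.11 (95% interval -0.04 to 0.45, limma adjusted p = 1, and 0.525 with the block).

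Another T-box gene expressed in the notochord, Tbx2/3 (KH.L96.87), had 2428 ± 248.9 normalised reads in control and 3129 ± 635.0 in Bra embryos (SD, n = 3 each). It had 3207 ± 233.8 with Mnx added, 3628 ± 266.8 with Foxa.a added and 3759 ± 133.3 with both (SD, n = 3 each). Its libraries in each Bra-given group lay above the controls, with 2640 against 2599 normalised reads at the closest, in Bra embryos. The same held for 6.63% of all genes with Bra alone, 7.53% with Mnx added, 10.4% with Foxa.a added and 9.32% with both. Tbx2/3 passed in the groups with Foxa.a (log2 fold changes 0.58 and 0.63, limma adjusted p = 0.0222 and 0.0106), where 3.7% and 2.82% of all genes were called higher. In Bra and Bra+Mnx embryos it stood at 0.35 and 0.40, with limma adjusted p of 0.826 and 0.175 in the fit of groups alone. With the block the adjusted p was 8.93e-04 and 0.00238 (limma), where 7.1% and 6.48% of all genes were called higher. Like Bra, its widest spread among the groups was in Bra embryos, where the coefficient of variation was 20.3% for Tbx2/3 and 31.6% for Bra.

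Celf3/4/5/6 (KH.C6.128), the neural RNA-binding protein gene whose enhancer drove the plasmids, went the other way. It fell in each Bra-given group against control, from 9522 ± 953.2 normalised reads to 5650.0 ± 597.1 with Bra alone, 4149 ± 304.6 with Mnx added, 3934 ± 502.9 with Foxa.a added and 3530.0 ± 507.2 with both (SD, n = 3 each; limma adjusted p at most 0.0284). The order of the group means was the reverse of that of Bra, also between Bra+Mnx and Bra+Foxa.a, where neither gene differed beyond its spread. Of the 7 listed neural genes 1 was called lower in Bra embryos, 4 with Mnx added, 5 with Foxa.a added and 5 with both (limma), and with the block 6, 6, 6 and 7. Over all genes the share called lower was 0.0703%, 0.394%, 1.33% and 1.16%, and 2.4%, 6.57%, 12% and 6.68% with the block. The median log2 fold changes of the neural list were -0.53, -0.87, -1.15 and -1.23 in the same order, beside medians of all genes within 0.015 of 0. The list held Neurog, Ebf, Pou4, Islet, Otx, Msx and Tyr. Msx did not share the fall in each group, at 0.12, -0.29, 0.02 and -0.35, and its libraries overlapped the controls in each. Islet libraries overlapped the controls in each group but Bra+Foxa.a. The muscle regulator Mrf had log2 fold changes of -0.07, -0.46, -0.45 and -0.43, and was called lower only with the block, in the 3 groups given a partner (limma adjusted p = 0.0441, 3.01e-04 and 0.0126). The 3 cardiac genes went different ways: Hand-r stood at 0.09, 0.10, 0.43 and 0.38, Nkx2-5 at -0.08, -0.48, 0.01 and -0.23, and Foxf at -0.15, -0.27, -0.26 and -0.16. With the block Hand-r was called higher in the groups given Foxa.a (0.00123 and 0.0105), Nkx2-5 lower with Mnx added (0.00781) and Foxf lower with either partner added singly (0.00974 with Mnx and 8.77e-04 with Foxa.a, limma adjusted p). The part of the lower levels of the driver gene and most listed neural genes in the Bra values was not tested.

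**Figure D4:**
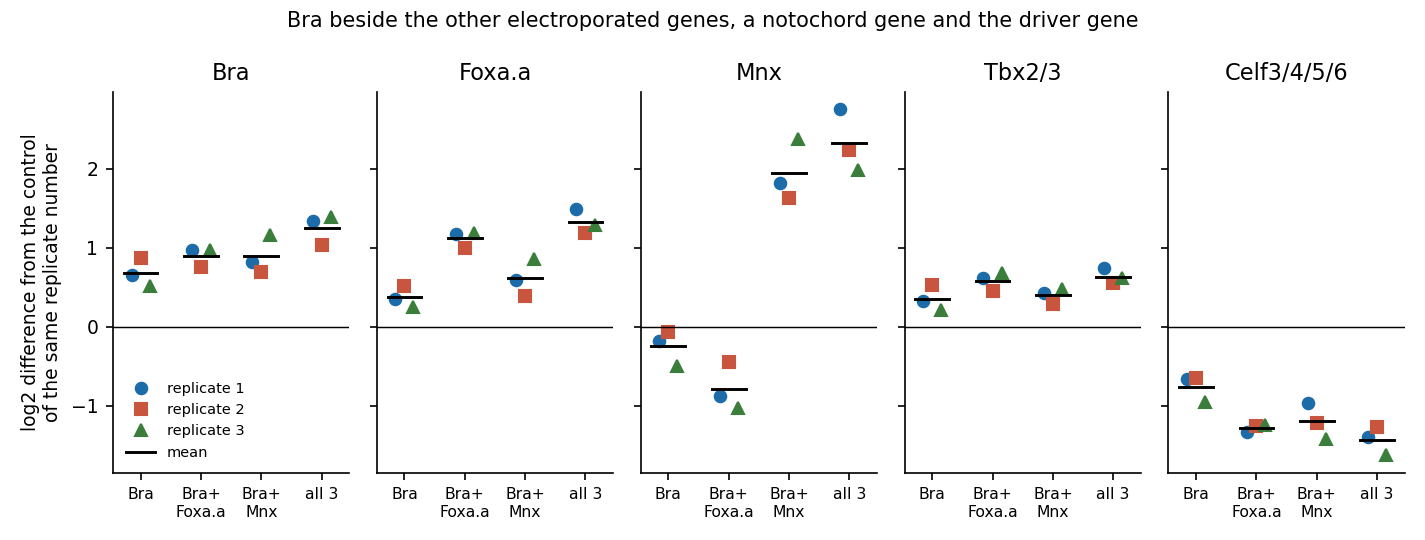
Log2 difference of each treated library from the control of the same replicate number (y axis) in the 4 Bra-given groups (x axis) for Bra, Foxa.a, Mnx, Tbx2/3 and the driver gene Celf3/4/5/6. Symbols mark replicate numbers and bars the mean of the 3 pairs; every Bra and Tbx2/3 value lies above 0, every Celf3/4/5/6 value below 0, and Mnx lies above 0 in all pairs of the 2 groups given its plasmid and below 0 in the others.

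The genes whose pattern was most like that of Bra were ranked by Pearson's r over the 15 libraries, after the mean of each replicate number was subtracted, among 12596 genes. The libraries share groups, so r describes the pattern and is no measure of a link. The median r was -0.03, and 134 genes (1.06%) lay above 0.90 and 77 (0.611%) below -0.90. KH.C12.600 and KH.C8.582 stood highest (r = 0.97 for each), and KH.C8.582 had 1088 ± 115.5 normalised reads in control and 1948 ± 297.9 with Bra alone, then 2436 ± 102.4 with Mnx added, 2810.0 ± 174.6 with Foxa.a added and 3273 ± 174.6 with both (SD, n = 3 each). KH.C7.473 and KH.C11.543 stood lowest (r = -0.96 for each). Among the listed genes Tbx2/3 ranked 15 (r = 0.95) and Foxa.a 119 (r = 0.91), while Mnx had r = 0.52. Foxa.a and Mnx were themselves given by plasmid in some of the groups, so their r also reflects which plasmids each group received. Celf3/4/5/6 was at -0.93 and the pigment-cell gene Tyr (KH.C12.469) at -0.94. Without the subtraction r was 0.84 and 0.94 for the first pair of gene models and -0.80 and -0.84 for the second, and none of the 4 was then among the 2 highest or the 2 lowest.

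Bra also varied between libraries of the same group more than most genes with like read numbers. Of its total sum of squares on the log2 scale 80.8% lay between groups, 11.8% between replicate numbers and 7.43% in neither. For the 2068 genes with a mean within 1.5-fold of that of Bra, the median shares were 16.7% between groups and 61.4% between numbers. Replicate 2 was the highest library of Bra in all 5 groups, on average 0.22 above the mean on the log2 scale, and its ratio to replicate 3 was 1.43 in control and 1.81 in Bra, and between 1.03 and 1.22 in the groups given a partner factor. After group means were removed the SD of Bra was 0.248 on the log2 scale, and 77.6% of those genes had a smaller one. After number means were removed as well it was 0.172, against a median of 0.0872, and 96.2% of them had a smaller SD. The largest departures were those of Bra replicate 2 (0.26), Bra replicate 3 (-0.22) and Bra+Mnx replicate 3 (0.21). With the Bra group left out, an alternative chosen after seeing the data, the SD was 0.119 and 85.1% of the genes had a smaller one.

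**Figure D5:**
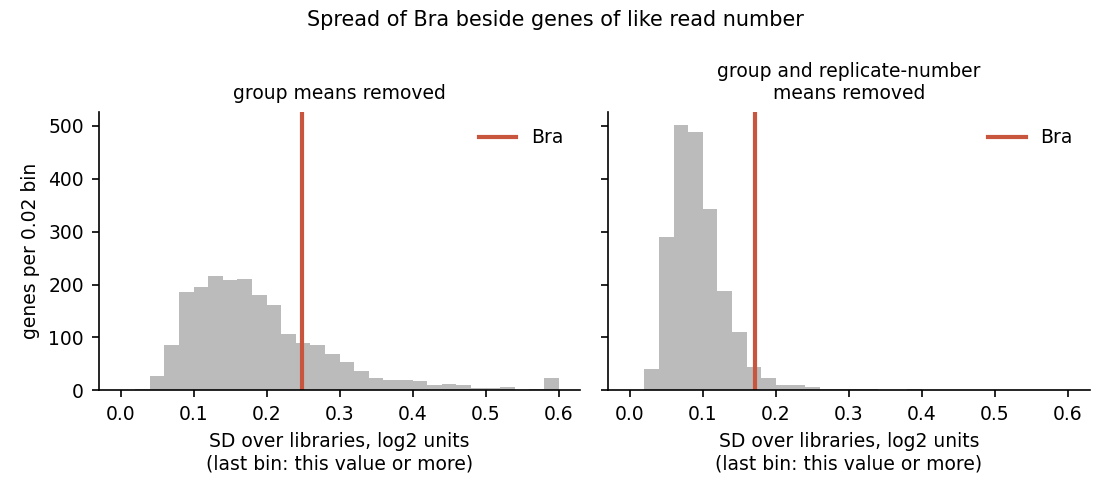
Number of genes (y axis) by the SD of their log2 level over libraries (x axis), for the 2068 genes with a mean within 1.5-fold of that of Bra, with group means removed (left) and with group and replicate-number means removed (right). The red line marks Bra, at 0.248 and 0.172; it lies in the upper tail of both panels, farther out in the right one.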

How the data were processed

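RNA of 15 samples was sequenced after stranded mRNA library preparation, per the labels' protocols. TopHat2 2.9.8b and DESeq 1.8.1 are named, per the submitters' processing notes. The sources used here do not give the build, read counter or strand setting. The authors deposited 4 tables, each with 1 treated group and the same 3 controls. Their first block holds a signal per gene, headed as counts normalised to library size per the file headers. All values of the 24 columns used were whole multiples of 1 step per column (100% within 0.01), so whole reads were recovered, and the controls were identical across tables. The 24 regularised log columns were not used. Libraries held 17689915 to 26460260 reads.

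Comparisons with control used limma 3.58.1 (R 4.3.3, limma-trend) on log2(value + 1) within each table, over genes with a mean of at least 1, with Benjamini-Hochberg adjustment over all genes and a threshold of 0.05, two-sided. Comparisons between Bra-given groups used 1 fit of the 15 libraries on recovered reads divided by median-of-ratios size factors. The quasi-likelihood test of edgeR 4.0.16 on recovered reads, without a block, called 203 genes against control with Bra, 716 with Foxa.a added, 280 with Mnx added and 539 with both, and DESeq2 1.42.0 was an alternative. The scripts were tested on simulated data that held no effect of the replicate number, and only in limma and edgeR fits without the block. Fold changes on this scale slightly understate change.

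Replicate numbers come from the titles. Deviations from group means correlated at 0.55 to 0.72 for all 30 same-number pairs of libraries over 14260 genes, and at -0.44 to -0.12 for the 60 other pairs. Deviations cancel within each group, so the negative values follow from the centring and are no separate support for a pairing. The numbers were taken to pair the samples in the same-number ratios, the permutation test and the blocked fits. The main limma fits used the groups only and left this pairing out. The replicates are described as biological in the series design, which does not mention the source of the eggs, so p-values measure the spread between these samples, which may be technical. Genes other than Bra were named from short lists, and by the 2 highest and 2 lowest correlations with Bra among genes with a mean of at least 10. The member and the lists were chosen with earlier results of these data known.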

Additional observations from a re-analysis of the deposited data

How the results depend on the processing

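The limma results for the Bra level were recomputed with another pseudocount, no filter or a stricter filter, edgeR, DESeq2, CPM scaling, the replicate block and each library left out, and comparisons with control also in 1 fit of all 15 libraries. The block was the only one of the settings that keep all libraries to change a call: Bra against control passed with it at 0.68 (limma, adjusted p = 2.52e-08) and at 0.68 in edgeR (9.35e-15), and Bra+Foxa.a+Mnx against Bra at 0.57 in limma and 0.56 in edgeR (adjusted p = 0.00265 and 0.00211). It changed no other call of Bra. The other named genes were fitted only as in the report, with the block and in edgeR. Settings without the block gave Bra against control 0.65 to 0.71 (lowest adjusted p = 0.0872). Leaving out 1 library gave log2 differences of 0.79 to 1.05 for Bra+Foxa.a and 0.78 to 1.04 for Bra+Mnx against control, and 0.38 to 0.81 for Bra+Foxa.a+Mnx, 0.03 to 0.46 for Bra+Foxa.a and 0.02 to 0.45 for Bra+Mnx against Bra. For Bra+Foxa.a against Bra+Mnx the range was -0.07 to 0.08, and for the interaction -0.10 to 0.33, reversed without Bra replicate 2. The share of all genes called moved more than Bra did: 1.42% to 10.2% in Bra, 4.74% to 24.6% in Bra+Foxa.a, 1.8% to 13.7% in Bra+Mnx and 3.73% to 15.2% in Bra+Foxa.a+Mnx against control, highest with the block. The permutation over all samples, ignoring numbers, gave p = 0.0022, and leaving out 1 number gave differences of 0.89 to 0.98 (p = 0.04, the smallest that its 25 arrangements allow, exact). Counting error of the Bra reads, 4.46% at most, was below the spread between replicates in each group.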

Other observations

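Within Bra embryos the difference from the same-number control was highest in replicate 2 and lowest in replicate 3 for Bra (0.65, 0.87 and 0.52 in log2 units for replicates 1 to 3), Foxa.a (0.35, 0.51 and 0.25) and Tbx2/3 (0.32, 0.53 and 0.21). In Bra+Mnx embryos it was highest in replicate 3 and lowest in replicate 2 for Bra (0.82, 0.69 and 1.16), Foxa.a (0.59, 0.39 and 0.86) and Tbx2/3 (0.43, 0.29 and 0.48). These orders were picked out after the values were seen and the pairs share their control libraries. Each order was common by itself: 21.9% of all genes tested had the first in Bra embryos and 18.9% the second in Bra+Mnx embryos. These shares count single genes in 1 group each. How many genes had both orders was not counted, so the shared order is not given as a result about these genes.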
